A study of Mus musculus with 9 samples.

Results

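The lipoxygenases and other eicosanoid enzymes described here are Alox5, Alox8, Alox12, Alox12e, Alox15, Alox5ap, Ltc4s, Hpgds, Ptgs1 and Ptgs2, a list of 10 genes chosen by name. A gene was taken as the transcript cluster, that is, the set of probes summed for 1 gene or locus, that the array annotation gives to that symbol alone. In all, 9 of the 10 genes had such a cluster, out of 18797 genes on the array, and Ptgs1 had none and was not analysed here. The RNA came from cultured mouse bone marrow cells and was hybridized to 9 arrays, 3 in each of 3 groups. The control cells carried the empty retroviral vector (MIE, which expresses enhanced green fluorescent protein), and the other groups carried that marker with GATA2 wild type (GATA2WT) or with the GATA2 variant R396Q (GATA2R396Q). GATA2 is a DNA-binding zinc finger protein that blood progenitors need, and the labels do not give the species of the cDNA. All groups came from C57BL/6 females aged 8 weeks that were given 5-fluorouracil at 150 mg/kg 6 days before marrow harvest. Cells selected as lineage-negative, Sca-positive and Kit-positive were infected on 2 consecutive days, cultured, and sorted for green fluorescence after 72 h. The labels name the tissue as blood and the cells as HSC (hematopoietic stem cells), and they do not tell whether arrays of 1 group stem from different mice or cultures, so p-values measure only the spread between these samples.

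Eicosanoids are short-lived signalling lipids made from arachidonic acid, which phospholipases A2 release from membranes. Lipoxygenases add oxygen at set positions of the chain: Alox5, with its helper protein Alox5ap, starts the leukotrienes, and Ltc4s then joins glutathione to make the cysteinyl leukotrienes. The cyclooxygenases Ptgs1 and Ptgs2 start the prostaglandins and thromboxane, and Hpgds makes prostaglandin D2. Mast cells, basophils and eosinophils are known for cysteinyl leukotrienes and prostaglandin D2, platelets for Alox12 and thromboxane, and eosinophils and some macrophages for Alox15.

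All 5 lipoxygenases were higher with GATA2 wild type, while with R396Q against empty vector their log2 changes ran from -0.27 (Alox12) to 4.05 (Alox15). The promoters of the 4 of them that the RefSeq table holds are shown here because of the rise with wild type. Each runs from 250 bases before to 50 bases after the gene start, 5′ to 3′ on the gene's strand, in build GRCm38.p6 of the table. Capitals mark the GATA motif and the GC box, searched on both strands. The GATA motif was searched as AGATAA, in the form AGATAG, in the form TGATAA and in the form TGATAG, and the GC box as GGGCGG. No match of one overlapped a match of the other. The Alox5 promoter is at chr6:116461129-116461428, minus strand, and those of Alox8 (chr11:69197794-69198093), Alox12 (chr11:70255321-70255620) and Alox12e (chr11:70322481-70322780) are also on the minus strand.
Alox5: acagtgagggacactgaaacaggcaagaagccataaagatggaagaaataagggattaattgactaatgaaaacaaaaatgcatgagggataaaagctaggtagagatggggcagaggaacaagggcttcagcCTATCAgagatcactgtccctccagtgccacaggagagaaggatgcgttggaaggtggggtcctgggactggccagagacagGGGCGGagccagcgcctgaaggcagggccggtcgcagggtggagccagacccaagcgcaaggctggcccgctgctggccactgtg
Alox8: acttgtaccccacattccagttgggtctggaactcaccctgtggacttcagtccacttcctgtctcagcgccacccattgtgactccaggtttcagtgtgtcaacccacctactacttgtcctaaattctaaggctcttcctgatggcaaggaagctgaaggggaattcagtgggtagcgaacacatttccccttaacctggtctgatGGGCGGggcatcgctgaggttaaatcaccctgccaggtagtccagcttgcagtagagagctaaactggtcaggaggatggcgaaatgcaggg
Alox12: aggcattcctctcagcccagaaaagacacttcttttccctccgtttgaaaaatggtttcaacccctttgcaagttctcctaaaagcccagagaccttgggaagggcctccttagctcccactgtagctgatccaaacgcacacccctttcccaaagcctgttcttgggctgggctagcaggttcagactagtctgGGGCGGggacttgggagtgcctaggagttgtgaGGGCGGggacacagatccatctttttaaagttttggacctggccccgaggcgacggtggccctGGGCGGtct
Alox12e: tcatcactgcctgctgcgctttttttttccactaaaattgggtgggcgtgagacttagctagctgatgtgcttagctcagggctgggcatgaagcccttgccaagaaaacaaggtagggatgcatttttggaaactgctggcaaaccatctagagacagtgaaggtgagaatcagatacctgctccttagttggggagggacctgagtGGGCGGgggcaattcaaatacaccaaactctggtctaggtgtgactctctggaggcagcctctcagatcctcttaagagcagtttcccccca
The GATA motif was found in the Alox5 promoter, where it reads CTATCA as printed (TGATAG on the other strand), starting 117 bases before the gene start. The windows of Alox8, Alox12 and Alox12e held 0 matches. Of 8 members in the table, which include the unmeasured Ptgs1, Alox5 was the only one with a match, beside 29.8% of all 32851 promoters of this length. These 8 are too few to tell a difference from that share, and bases outside the windows were not searched. Each of the 4 printed promoters held the GC box, with 3 matches in Alox12 and 1 in each of the others, beside 35.7% of all promoters. The Ptgs2 promoter also held 1 GC box, and those of Hpgds, Ltc4s and Ptgs1 held none. The GC content of the 4 printed promoters was 50.7% to 55.7%, where the median over all promoters was 52.7%. Promoters of Alox15 and Alox5ap were not used here.

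Across the 9 arrays the median log2 signal was 6.06 to 6.19 and the lower quartile was 4.54 to 4.60. The labelled cell type was checked against its markers: of 8 stem and progenitor genes measured, the mean log2 signal was 8.48 to 8.76 with empty vector, 7.70 to 7.85 with wild type and 8.19 to 8.72 with R396Q. Of these 8, 1 rose and 3 fell with wild type, 1 rose and 1 fell with R396Q, and 2 were higher and 1 lower with R396Q than with wild type. Of all clusters, 8.99%, 1.23% and 5.75% passed in these comparisons, in the same order. Among the 8, Kit and Cd34, which define early progenitors, were 12.22 to 12.38 and 12.94 to 13.46 with empty vector and 9.42 to 9.50 and 8.41 to 8.69 with wild type. Slamf1, a marker of stem cells and also of some mature cells, rose by 3.58 with wild type (limma adjusted p = 0.00339) and by 3.25 with R396Q (0.0188, lost on dropping empty vector 1 or 3 or R396Q 1 or 2, up to 0.0868). Gata2 itself had log2 signals of 9.87, 9.67 and 9.65 with empty vector, 11.50, 11.24 and 10.94 with wild type and 10.65, 10.72 and 10.53 with R396Q. The 3 groups did not overlap in it. The R396Q rise in Gata2 (0.90, SE 0.14, limma adjusted p = 0.0394) did not survive dropping 1 array in 7 of 9 cases, wild type 1 and 3 being the exceptions (adjusted p up to 0.155). R396Q was below wild type by 0.59 (SE 0.14), which missed the threshold (limma adjusted p = 0.0633) and passed it with the replicate number as a block (0.0222). The part of this difference in Gata2 in the results below was not tested. In these bulk samples, more cells of a type and more RNA per cell cannot be told apart.

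**Figure D1:**
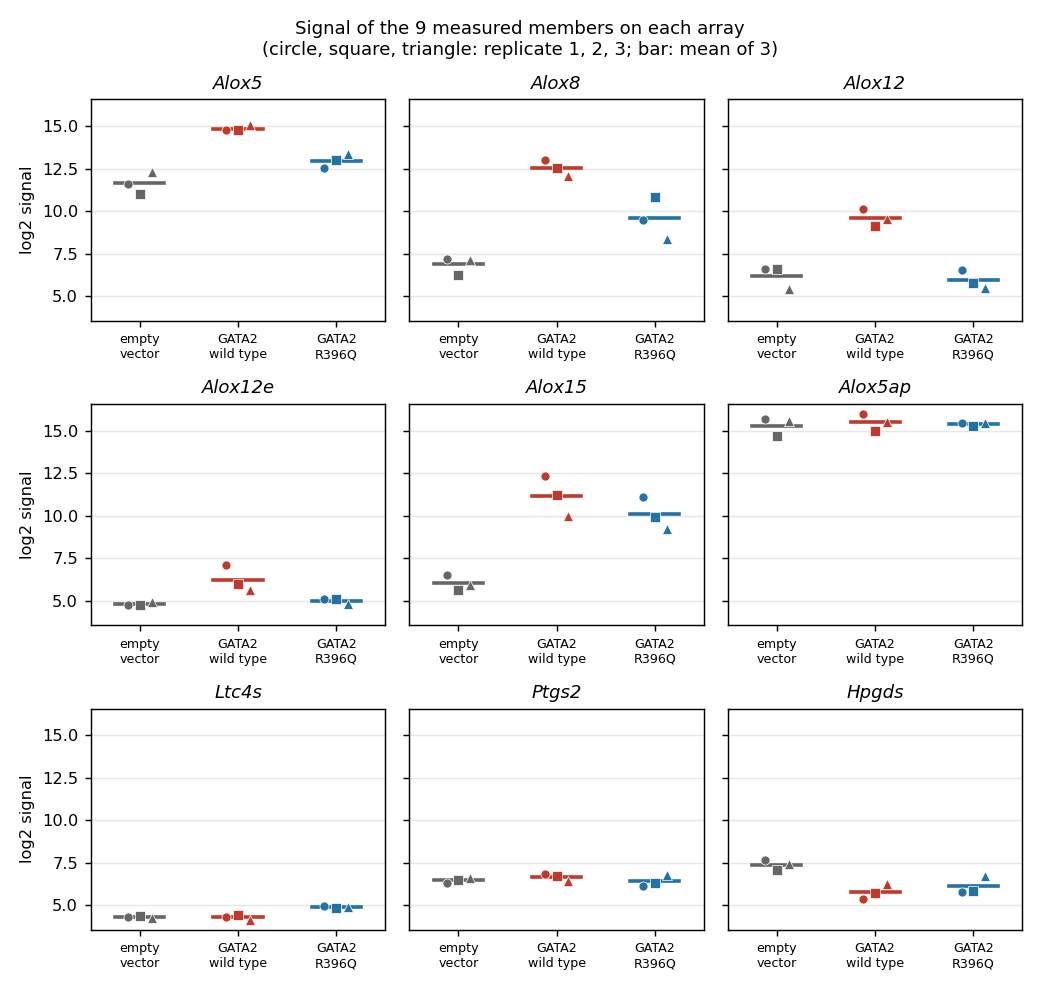
Log2 signal (y axis) of the 9 measured members in the 3 groups (x axis), with 1 point per array, the marker shape giving the replicate number and the bar the mean of 3 arrays. Alox5, Alox8, Alox12, Alox12e and Alox15 lie higher with wild type than with empty vector on every array, and Alox8 with R396Q spreads from 8.38 to 10.85.

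Wild type GATA2 was set against the empty vector to see which genes respond when GATA2 is raised. Of the 9 members, 5 rose, 1 fell and 3 did not pass the test, and the 5 that rose were the 5 lipoxygenases. Over all 21072 clusters, 4.64% rose and 4.35% fell by the same rule (limma, Benjamini-Hochberg adjusted p under 0.05). The median log2 change was 1.43 over the members and -0.01 over all clusters. The groups did not overlap in 6 of the 9 members, 5 higher and 1 lower, where 10.8% and 11.8% of all clusters parted upward and downward. The members were chosen with results of these arrays known, so their share is no independent support. Each fold below rests on n = 3 arrays per group, and each SE belongs to the log2 change.

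Alox8, an enzyme that oxygenates arachidonic acid and is best known from skin, had the largest change of the members. Its log2 signals were 7.19, 6.26 and 7.15 on empty vector arrays 1 to 3, and 13, 12.54 and 12.06 on wild type arrays 1 to 3. With R396Q they were 9.48, 10.85 and 8.38. The 3 groups did not overlap, and the R396Q arrays lay between the others with the widest spread (SD 1.24, against 0.53 and 0.47). Wild type was 50.9-fold above empty vector (5.67 on the log2 scale, SE 0.62, limma adjusted p = 0.0028), and this held without any 1 array (adjusted p up to 0.0136). R396Q was 6.51-fold above empty vector (2.70, SE 0.62, 95% confidence interval 1.22 to 4.18), which did not pass the test (limma adjusted p = 0.117). R396Q was 7.81-fold below wild type (-2.96, SE 0.62, limma adjusted p = 0.0418). That call survived dropping R396Q 2 but none of the 8 other arrays (adjusted p up to 0.133), and it was also lost in a fit of these groups alone (0.117) and with array weights (0.055). Within replicate numbers 1, 2 and 3, R396Q exceeded empty vector by 2.28, 4.60 and 1.23 on the log2 scale.

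Alox15, the leukocyte enzyme that oxygenates arachidonic acid near its far end, was high with both forms of GATA2. Log2 signals of Alox15 were 6.53, 5.63 and 5.94 with empty vector, 12.37, 11.20 and 10 with wild type and 11.10, 9.95 and 9.20 with R396Q. Both GATA2 groups lay above every empty vector array and overlapped each other. Wild type was 35.7-fold above empty vector (5.16, SE 0.70, limma adjusted p = 0.00609), a call kept without any 1 array (up to 0.0262). R396Q was 16.5-fold above empty vector (4.05, SE 0.70, 95% confidence interval 2.40 to 5.70). This missed the threshold without the replicate block (limma adjusted p = 0.0511) and passed it with the block (SE 0.36, adjusted p = 0.0148), as it did in 6 of 9 alternatives in all. Without the block, dropping any 1 of the 9 arrays gave no call (limma adjusted p = 0.0509 to 0.175). R396Q was 2.16-fold below wild type (-1.11, SE 0.70, 95% confidence interval -2.76 to 0.54), which did not pass the test (limma adjusted p = 0.505). In each group array 1 was the highest for Alox15, and the difference of R396Q from wild type was -1.27, -1.25 and -0.81 within numbers 1, 2 and 3.

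Alox5, the first enzyme of leukotriene synthesis, was already bright with empty vector and rose further. Log2 signals were 11.58, 11.04 and 12.32 with empty vector, 14.77, 14.76 and 15.05 with wild type and 12.53, 13.04 and 13.36 with R396Q. The groups were ordered empty vector, R396Q and wild type with no overlap, and the wild type arrays were the closest together (SD 0.16). Wild type was 9.29-fold above empty vector (3.22, SE 0.35, limma adjusted p = 0.00254), also without any 1 array (up to 0.0137). R396Q was 2.52-fold above empty vector (1.33, SE 0.35, 95% confidence interval 0.52 to 2.15), which did not pass (limma adjusted p = 0.159). R396Q was 3.68-fold below wild type (-1.88, SE 0.35, limma adjusted p = 0.0251). Dropping empty vector 1, R396Q 1, R396Q 2 or any 1 wild type array ended this call (adjusted p up to 0.0854).

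Alox12, the platelet enzyme, was high with wild type alone. Log2 signals of Alox12 were 6.59, 6.59 and 5.40 with empty vector, 10.12, 9.12 and 9.51 with wild type and 6.53, 5.76 and 5.48 with R396Q. The R396Q arrays lay within the range of the empty vector arrays. Wild type was 10.5-fold above empty vector (3.39, SE 0.44, limma adjusted p = 0.00532), and R396Q was 12.7-fold below wild type (-3.66, SE 0.44, limma adjusted p = 0.0053). Both calls were kept without any 1 array (up to 0.0206 and 0.0289). The difference of R396Q from empty vector was -0.27 (SE 0.44, 95% confidence interval -1.32 to 0.78), with a limma adjusted p of 0.876.

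Alox12e, a skin-type enzyme of the same family, showed a smaller rise. Log2 signals were 4.73, 4.76 and 4.90 with empty vector, 7.08, 5.97 and 5.63 with wild type and 5.07, 5.07 and 4.78 with R396Q. Every wild type array was above all others, and empty vector and R396Q overlapped. The signals of those 2 groups lay little above the lower quartiles of the arrays (4.54 to 4.60). Folds of Alox12e thus rest on a dim lower side and are uncertain as folds in RNA. Wild type was 2.70-fold above empty vector (1.43, SE 0.34, limma adjusted p = 0.0478). Dropping 1 array ended the call for 7 of the 9, wild type 1 and 3 excepted (adjusted p up to 0.124), and so did a fit of these groups alone (0.149) and array weights (0.0624). R396Q was 2.39-fold below wild type (-1.26, SE 0.34, limma adjusted p = 0.096), which passed only without wild type 1 (-0.83, adjusted p = 0.0337).

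Among the members that act beside the lipoxygenases, Hpgds, the prostaglandin D synthase of blood cells, was lower with both forms of GATA2. Log2 signals of Hpgds were 7.67, 7.05 and 7.41 with empty vector, 5.34, 5.69 and 6.23 with wild type and 5.79, 5.84 and 6.73 with R396Q. The empty vector arrays lay above all others, and the GATA2 groups overlapped. With wild type Hpgds fell 3.08-fold (-1.62, SE 0.33, limma adjusted p = 0.0279), a call that ended when empty vector 1 or 3 or wild type 1 or 2 was dropped (up to 0.0875) or these groups were fitted alone (0.0515). With R396Q it was 2.39-fold below empty vector (-1.26, SE 0.33, 95% confidence interval -2.05 to -0.47), which did not pass (limma adjusted p = 0.168).

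Ltc4s, the leukotriene C4 synthase, was the 1 member that passed the test with R396Q against empty vector. Its log2 signals were 4.29, 4.35 and 4.25 with empty vector, 4.32, 4.41 and 4.14 with wild type and 4.96, 4.85 and 4.89 with R396Q. The R396Q arrays lay above the 6 others, which were all below the lower quartile of their arrays, so dim that a signal over background is uncertain there. The R396Q signal was 0.60 above empty vector (SE 0.07, limma adjusted p = 0.0157) and 0.61 above wild type (SE 0.07, limma adjusted p = 0.00492) on the log2 scale, and no fold in RNA is given, since the lower side is so dim. The first call ended when empty vector 1 or 3 or any 1 R396Q array was dropped (up to 0.0657), and the second held without any 1 array (up to 0.0244).

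Alox5ap, the membrane protein that presents arachidonic acid to Alox5, was bright on every array, at 14.69 to 15.68 with empty vector, 14.98 to 15.99 with wild type and 15.26 to 15.45 with R396Q. Its change with wild type was 0.19 (SE 0.33, 95% confidence interval -0.59 to 0.97) and with R396Q 0.08 (95% confidence interval -0.70 to 0.85). The inducible cyclooxygenase Ptgs2 ranged from 6.29 to 6.60 with empty vector, 6.43 to 6.86 with wild type and 6.14 to 6.77 with R396Q. Its change was 0.20 with wild type (95% confidence interval -0.25 to 0.64) and -0.06 with R396Q (-0.50 to 0.38). Neither gene passed the limma test in any of the 3 comparisons, with adjusted p of 0.579 to 0.979, and their groups overlapped throughout.

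**Figure D2:**
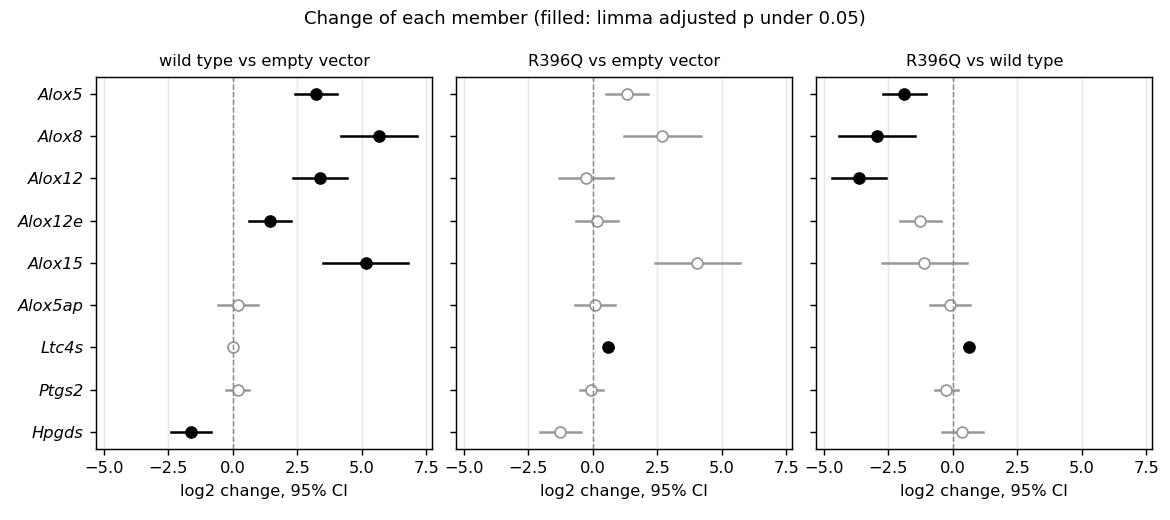
Log2 change of each member (points) with its 95% confidence interval from limma (lines) in the 3 comparisons, filled where the adjusted p was under 0.05. The 5 lipoxygenases are filled on the right of 0 for wild type with empty vector, and Alox15 has intervals far from 0 with both forms of GATA2 (5.16 and 4.05).

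The same question was put to the variant, with R396Q set against the empty vector. Of the 9 members, 1 rose (Ltc4s), 0 fell and 8 did not pass the limma test, where 0.66% of all clusters rose and 0.569% fell. At an unadjusted p under 0.05, 4 members were higher and 1 lower, where 12.1% of all clusters passed in either direction. With the replicate block 2 rose, Ltc4s and Alox15, where 1.66% of all clusters rose. The groups did not overlap in 5 members, with Alox5, Alox8, Alox15 and Ltc4s higher and Hpgds lower, against 6.98% and 7.1% of all clusters. The median change was 0.17 over the members and -0.01 over all clusters. This comparison shares its empty vector arrays with the one above. Leaving out any 1 R396Q array, or empty vector 1 or 3, left 0 members called.

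R396Q was then set against wild type, to see how the variant and the normal protein differ. Alox5, Alox8 and Alox12 were lower with R396Q and Ltc4s was higher, so 4 of 9 members passed the test, where 3.08% of all clusters fell and 2.67% rose. The groups did not overlap in 5 members, the same 4 and Alox12e, beside 9.59% of all clusters lower and 11% higher. The median change was -1.11 over the members and 0.00 over all clusters. Leaving out empty vector 1, wild type 2 or 3, or R396Q 1 left 2 members called.

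The 5 lipoxygenases lie at 3 places in the genome, and the genes next to them were also measured. In the RefSeq order Alox12, Alox12e and Alox15 follow each other on chromosome 11, Alox8 lies next to Alox12b and Aloxe3 on the same chromosome, and Alox5 is on chromosome 6. Of 18 other protein-coding genes within 3 places of a lipoxygenase, 15 were measured. Of these, 1 rose and 0 fell with wild type, where 8.99% of all clusters changed. With R396Q against empty vector 0 passed, where 1.23% of all clusters did. At an unadjusted limma p under 0.05, 5 of 15 passed with wild type (22.1% of all clusters) and 0 with R396Q against empty vector (12.1%). For R396Q against wild type there were 2 (17.7% of all clusters). The 1 that rose was Gucy2e, a guanylate cyclase of the retina next to Alox8. The log2 signals of Gucy2e were 4.81, 4.83 and 4.83 with empty vector, 6.13, 5.86 and 5.48 with wild type and 4.86, 5.10 and 4.93 with R396Q. Gucy2e rose by 1.00 with wild type (SE 0.15, limma adjusted p = 0.0096, kept without any 1 array) and lay 0.86 below wild type in R396Q cells (limma adjusted p = 0.0231, up to 0.0884 and lost on dropping wild type 2 or any 1 R396Q array). Alox12b and Aloxe3, lipoxygenases of the skin barrier on the other side of Alox8, had changes of 0.36 and 0.02 with wild type (limma adjusted p = 0.116 and 0.66). Aloxe3 was below the lower quartile of every array and Alox12b of 8 arrays. Pelp1, beside Alox15, changed by -0.52 (limma adjusted p = 0.183), which passed with the replicate block (0.0165), as did Zfand4 near Alox5 (0.54, limma adjusted p = 0.0998, and 0.0459 with the block).

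**Figure D3:**
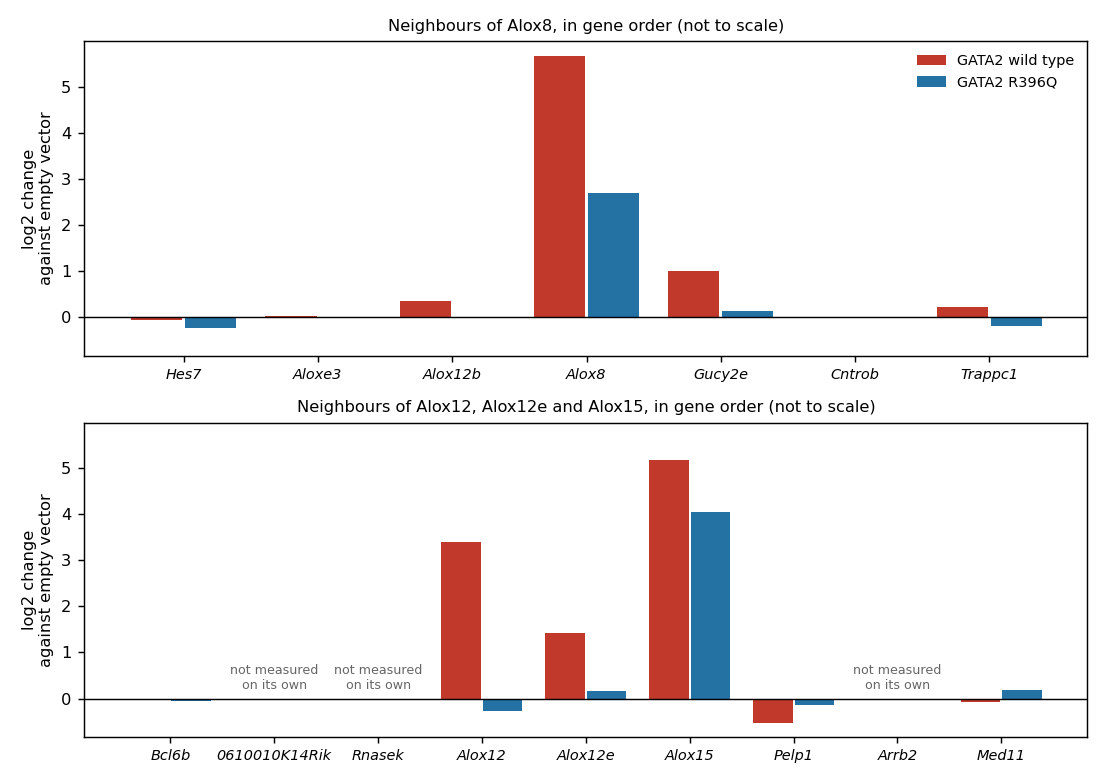
Log2 change against empty vector (y axis) for the genes around Alox8 and around Alox12, Alox12e and Alox15, in gene order on chromosome 11 (x axis, not to scale), with wild type in red and R396Q in blue. The wild type bars of Alox8, Alox12, Alox12e and Alox15 stand above those of their neighbours, of which Gucy2e reaches 1.00, and genes with no cluster to their symbol alone are marked.

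Other genes of the pathway were taken from a list of 75, of which 70 were measured. With wild type 7 rose and 6 fell (18.6%, where 8.99% of all clusters changed), with a median of 0.02. With the replicate block 12 rose and 10 fell, where 17.4% of all clusters changed. With R396Q against empty vector 1 rose and 0 fell (1.43%, against 1.23% of all clusters). At an unadjusted limma p under 0.05, 2 were higher and 10 lower, where 12.1% of all clusters passed in either direction. With the block 1 rose and 1 fell, where 3% of all clusters changed. The comparison of R396Q against wild type gave 2 higher and 4 lower (8.57%, against 5.75%). With the block the last counts were 5 higher and 9 lower, where 13.1% of all clusters changed.

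In the supply of arachidonic acid, 1 of 19 phospholipases A2 rose with wild type and 0 fell, beside 4.64% and 4.35% of all clusters. This was Pla2g4c, a calcium-independent cytosolic phospholipase. Its log2 signals were 6.29, 6.18 and 5.47 with empty vector, 8.73, 9.06 and 8.62 with wild type and 5.75, 5.93 and 5.78 with R396Q. Pla2g4c rose 7.07-fold with wild type (2.82, SE 0.22, limma adjusted p = 0.00078) and stood 7.91-fold below wild type in the R396Q cells (limma adjusted p = 0.00107), and both calls were kept without any 1 array. Pla2g4a, the main cytosolic phospholipase of leukotriene synthesis, was bright in all groups (12.14 to 12.70). It was higher by 0.34 with R396Q than with wild type (SE 0.07, limma adjusted p = 0.0454), a call lost with the block (0.0626), in a fit of these groups alone, with the trend and robust options, with quantile normalization, and on dropping each array but wild type 2 (up to 0.126).

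Of 8 other leukotriene enzymes measured, 1 rose, 1 fell and 6 did not pass with wild type, and 1 was higher and 1 lower with R396Q than with wild type. Of all clusters, 8.99% passed with wild type and 5.75% for R396Q against wild type. Lta4h, which makes leukotriene B4, had log2 signals of 12.94, 12.34 and 12.27 with empty vector, 11.10, 10.35 and 10.59 with wild type and 12.90, 11.94 and 11.87 with R396Q. The wild type arrays lay below all others. Lta4h fell 3.57-fold with wild type (-1.84, SE 0.34, limma adjusted p = 0.0202), which needed empty vector 1 and wild type 2 and 3 (up to 0.0638 without 1 of them). It was 2.94-fold higher with R396Q than with wild type (limma adjusted p = 0.0485), a call that leaving out any 1 of the 9 arrays ended (0.0632 to 0.131). Mgst3, a microsomal glutathione transferase, was 5.02-fold lower with R396Q (6.48, 6.77 and 6.54) than with wild type (9.29, 8.13 and 9.36), with an SE of 0.41 and a limma adjusted p of 0.0212. The Mgst3 call ended when wild type 1 or 3 or any 1 R396Q array was dropped (up to 0.0819).

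On the prostanoid side, Tbxas1, the thromboxane synthase of platelets and macrophages, rose 2.59-fold with wild type (1.37, SE 0.20, limma adjusted p = 0.00718). The log2 signals of Tbxas1 were 10.34, 10.55 and 10.24 with empty vector, 11.90, 11.55 and 11.79 with wild type and 11.10, 10.80 and 10.35 with R396Q. In R396Q cells Tbxas1 stood 2.00-fold below wild type (limma adjusted p = 0.0319), until empty vector 1 or 3, R396Q 2 or any 1 wild type array was dropped (up to 0.104). Ptgr1, which inactivates prostaglandins and leukotriene B4, fell 1.76-fold with wild type (SE 0.15, limma adjusted p = 0.0203). Abcc4, an exporter of prostaglandins, fell 1.57-fold (SE 0.12, limma adjusted p = 0.0206). Dropping empty vector 1 or 3 or wild type 1 or 2 ended both of these calls (up to 0.0697 and 0.0696).

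In the epoxygenase branch, Ephx2, the soluble epoxide hydrolase, rose 2.14-fold with wild type (1.10, SE 0.11, limma adjusted p = 0.00201), from signals that lay below the lower quartile on 5 of the other 6 arrays. R396Q cells had 2.16-fold less Ephx2 than wild type (limma adjusted p = 0.0026). Cyp2j9, a cytochrome P450, fell 1.38-fold with wild type (SE 0.07, limma adjusted p = 0.0105), a call lost in a fit of these groups alone (0.0597). Its wild type signals (4.84 to 4.91) lay little above the lower quartiles of their arrays, so this fold is uncertain as a fold in RNA. The other genes called with wild type were Cbr1, a carbonyl reductase (1.71-fold higher, lost on dropping empty vector 2 or 3 or wild type 2, up to 0.0704), and Cyp4f18, which rose, and Elovl5, a fatty acid elongase (2.37-fold lower, lost on dropping each array but wild type 3, up to 0.111). The limma adjusted p was 0.0205 for Cbr1, 0.0444 for Cyp4f18 and 0.0368 for Elovl5. They lie outside the naming rule and were named after their values were seen.

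Of 15 receptor genes measured, 2 rose and 1 fell with wild type, where 8.99% of all clusters changed. With R396Q against empty vector 1 rose, where 1.23% of all clusters changed. For R396Q against wild type 0 passed by limma, where 5.75% of all clusters did. In that comparison 2 were lower at an unadjusted limma p under 0.05 (17.7% of all clusters in either direction), and 2 passed with the block (13.1%). Ptger3, a receptor for prostaglandin E2, rose with both forms of GATA2 and was the 1 pathway gene called with R396Q against empty vector. Its log2 signals were 9.30, 9.49 and 9.81 with empty vector, 11.74, 11.23 and 11.61 with wild type and 11.10, 11.25 and 11.62 with R396Q. The folds were 3.99 with wild type (2.00, SE 0.20, limma adjusted p = 0.00198) and 3.46 with R396Q (1.79, SE 0.20, limma adjusted p = 0.0134), the second lost without R396Q 2 (0.0616) and in a fit of these groups alone (0.0569). Of the 2 cysteinyl leukotriene receptors, Cysltr2 rose and Cysltr1 fell with wild type. Cysltr2 had log2 signals of 5.77, 6.37 and 5.18 with empty vector and 8.06, 7.42 and 7.20 with wild type (3.44-fold, SE 0.36, limma adjusted p = 0.026), a call that ended on dropping R396Q 1, empty vector 1 or 3 or wild type 1 or 2 (up to 0.0768). Cysltr1 had 6.89, 5.55 and 6.24 with empty vector and 4.46, 4.76 and 4.98 with wild type (2.81-fold lower, SE 0.32, limma adjusted p = 0.0322), a call that survived dropping empty vector 1 or 2 and no other array (up to 0.104). The wild type signals of Cysltr1 were near the lower quartile, below it on 1 array, so its fold is uncertain as a fold in RNA. Neither Cysltr1 nor Cysltr2 passed with R396Q against empty vector.

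**Figure D4:**
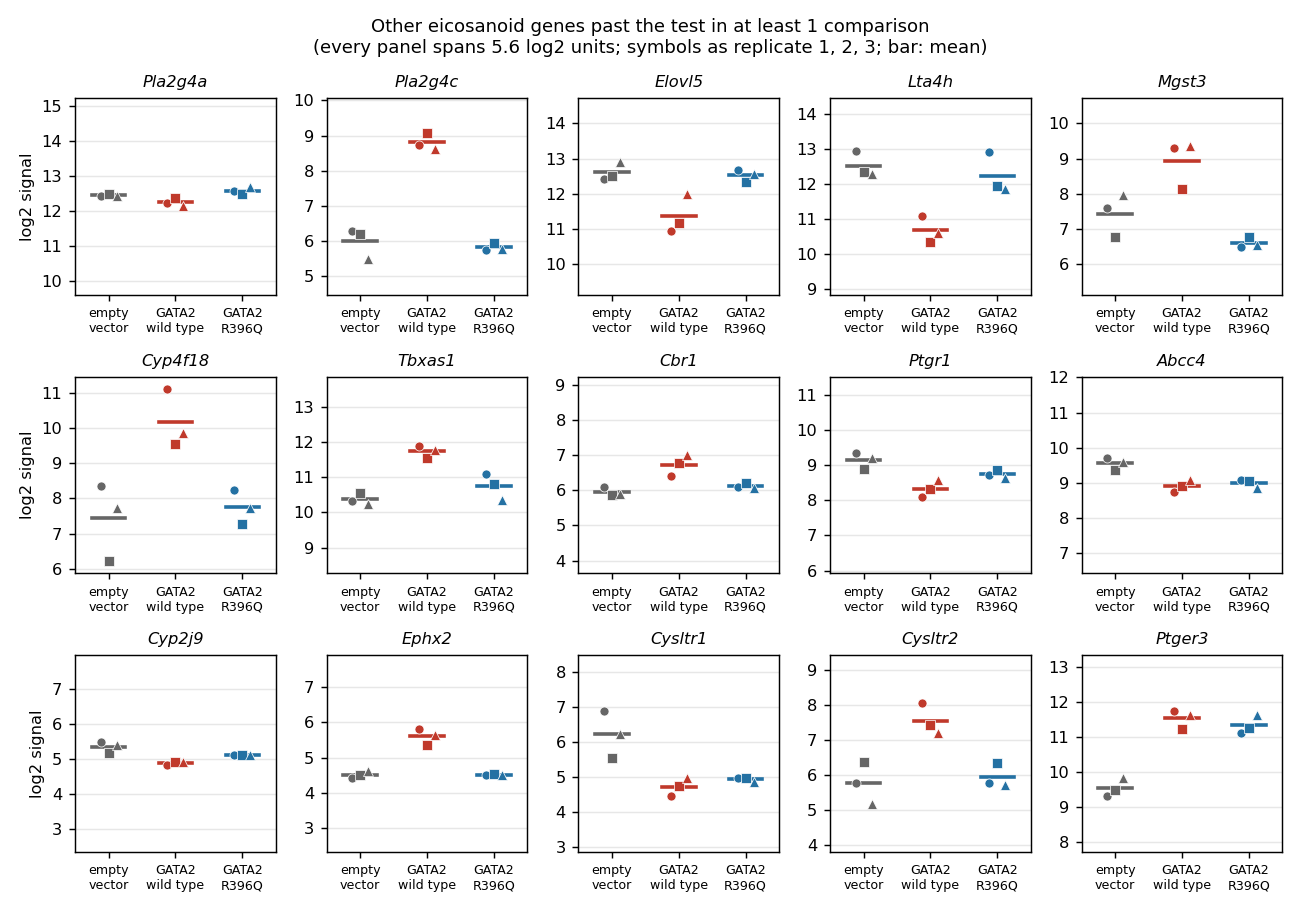
Log2 signal (y axis, 5.6 units in every panel) on each array of the other eicosanoid genes that passed the test in at least 1 comparison, with the marker shape giving the replicate number and the bar the mean of 3 arrays. Pla2g4c is high with wild type alone (8.62 to 9.06), Ptger3 is high with both forms of GATA2, and Lta4h is low with wild type.

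Marker genes of the cell types that can carry these enzymes were measured on the same arrays, and their part in the results was not tested. Shares of all clusters stand beside the counts of every marker list below. With wild type 4.64% rose and 4.35% fell, and with R396Q 0.66% rose and 0.569% fell. For R396Q against wild type 2.67% were higher and 3.08% lower. In either direction, 17.4%, 3% and 13.1% passed with the block, and 22.1%, 12.1% and 17.7% at an unadjusted limma p under 0.05. Of 10 mast cell genes, 6 rose with wild type and 0 with R396Q (limma, 4 at an unadjusted p under 0.05, and 3 with the block), and their mean log2 signal was 7.91 to 9.14 with empty vector, 10.12 to 11.43 with wild type and 9.33 to 9.81 with R396Q. Of 9 basophil genes, 7 rose with wild type and 1 with R396Q (8.60 to 9.61, 11.41 to 11.99 and 9.51 to 9.97). Hdc, the histamine-making enzyme, rose 17.7-fold (SE 0.28) with wild type. In the mean of each list, as in Alox5 and Alox8, the wild type arrays were above all others. Gene by gene, they lay above every empty vector array in 6 of 10 mast cell and 8 of 9 basophil genes (10.8% of all clusters). They lay above every R396Q array in 4 of 10 mast cell and 7 of 9 basophil genes (9.59% of all clusters). By limma, 4 mast cell and 5 basophil genes were lower with R396Q than with wild type. Ms4a2 is in both lists and is counted in each. The basophil gene called with R396Q against empty vector was Il6.

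Genes of the platelet lineage, which is known for Alox12, are given beside it. Of 11 megakaryocyte and platelet genes, 8 rose with wild type and 0 with R396Q (2 higher at an unadjusted limma p under 0.05), and their mean log2 signal was 7.36 to 7.91 with empty vector, 9.87 to 10.68 with wild type and 7.29 to 8.14 with R396Q. Vwf, which makes von Willebrand factor, rose by 3.59 on the log2 scale with wild type (SE 0.17). Of 12 erythroid genes, 10 rose with wild type and 0 with R396Q, also at an unadjusted p. Their mean was 6.24 to 6.53, 9.04 to 9.99 and 6.36 to 6.61 in the same order of groups. Over all clusters 4.64% rose with wild type and 0.66% with R396Q.

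Genes of eosinophils, which are known for Alox15, varied with the replicate number. Of 7 measured, 0 passed the limma test in any comparison, 4 were higher with wild type at an unadjusted p under 0.05 and 3 rose with the replicate block, and the mean log2 signal was 6.12 to 7.99 with empty vector, 7.36 to 10.63 with wild type and 5.84 to 8.67 with R396Q. Epx, the eosinophil peroxidase, had 8.99, 6.26 and 5.86 with empty vector, 14.81, 14.02 and 7.24 with wild type and 14.96, 14.80 and 6.49 with R396Q. Array 3 of each group was thus the lowest for Epx. Mean log2 signals with empty vector and with R396Q were 7.04 and 12.08 for Epx, but 9.69 and 8.73 for Prg2. They were 7.70 and 8.01 for Prg3, 6.77 and 7.12 for Ear6 and 7.86 and 8.22 for Siglecf. Il5ra had 4.68 and 4.82, and Ccr3 had 4.18 and 4.12. Alox15 on array 3 of empty vector, wild type and R396Q was 5.94, 10 and 9.20.

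With wild type Hpgds and Cysltr1 fell, and so did genes of monocytes and macrophages. Of 13 such genes, 7 fell with wild type and 4 with R396Q (9 and 6 with the block), and their mean log2 signal was 9 to 10.24 with empty vector, 6.93 to 7.80 with wild type and 7.55 to 8.11 with R396Q. Of 14 neutrophil genes, 6 fell with wild type and 1 with R396Q (12 and 2 with the block), and 3 were higher with R396Q than with wild type (10 with the block). The neutrophil mean was 10.53 to 13.14 with empty vector, 6.93 to 9.41 with wild type and 9.53 to 12.51 with R396Q. Over all clusters 4.35% fell with wild type and 0.569% with R396Q, and 2.67% were higher with R396Q than with wild type. Of 12 genes of epidermal keratinocytes, the cells best known for Alox8 and Alox12e, 1 rose with wild type and 0 with R396Q. It was Tgm1 (4.17-fold, SE 0.43, limma adjusted p = 0.0303, up to 0.0926 and lost on dropping each array but empty vector 3 and wild type 1). The mean of that list was 5.31 to 5.42 with empty vector, 5.42 to 5.70 with wild type and 5.39 to 5.45 with R396Q, and Trp63, a defining factor of these cells, was below the lower quartile of every array. Of 8 lymphoid genes 0 passed in any comparison (at an unadjusted limma p under 0.05, 1 higher and 1 lower with R396Q than with wild type), and of 9 stromal and endothelial genes 1 rose in each comparison.

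**Figure D5:**
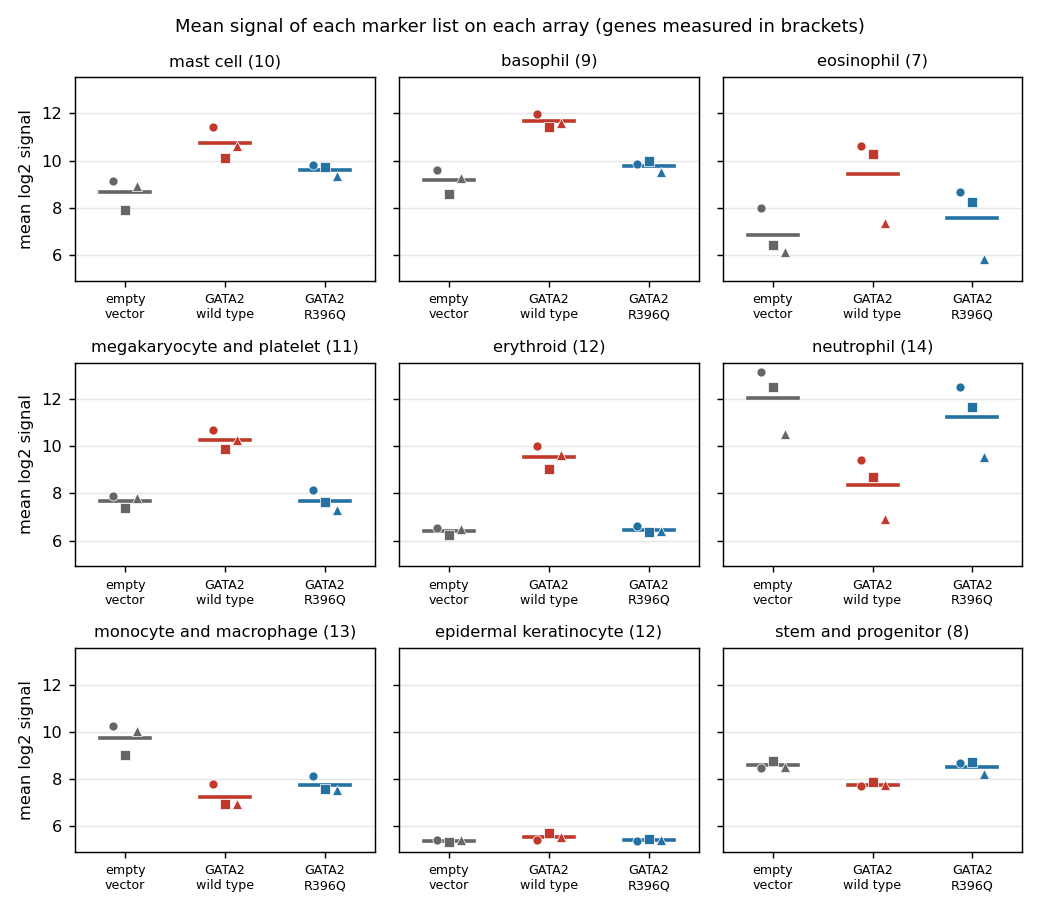
Mean log2 signal (y axis) of 9 marker lists on each array in the 3 groups (x axis), with the marker shape giving the replicate number and the bar the mean of 3 arrays. The mast cell, basophil, platelet and erythroid lists are highest with wild type, the monocyte list is highest with empty vector, and the eosinophil list is lowest on array 3 of each group.

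Genes with patterns most like the members were sought by the root mean square difference over the 9 arrays, after each gene's own mean was subtracted, among 18160 named genes. For Alox5 these were Slc18a2, the monoamine transporter of mast cell granules (0.22 on the log2 scale), Rnf128 (0.28) and the signalling adaptor Lat (0.29). For Alox8 they were Padi2, which turns arginine into citrulline in proteins (0.60), Hdc (0.87) and Cd55 (1.00), and for Alox15 Igfbp5 (0.84), Slamf1 (0.84) and the growth factor gene Hgf (0.92). Alox12 was most like Ampd3, an AMP deaminase of red cells (0.35), Naprt (0.40) and Irs2 (0.41), and Alox12e like Pde10a (0.20), St6gal1 (0.20) and Adk (0.22). Hpgds was most like Plekhg1 (0.26), Ctsc (0.30) and Tlr4 (0.31). For scale, the standard deviation of the members themselves over the 9 arrays was 2.56 for Alox8, 2.48 for Alox15, 1.84 for Alox12, 1.45 for Alox5, 0.83 for Hpgds and 0.78 for Alox12e. Hgf was high with both forms of GATA2, at 10.03 to 10.36 with empty vector, 13.40 to 13.87 with wild type and 13.30 to 14.03 with R396Q, whereas Ampd3 was high with wild type alone (9.61 to 10.89, against 6.74 to 7.39 in both other groups).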

How the data were processed

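Per the labels and the submitters' processing notes, the authors ran RMA (background correction, quantile normalization and probe summary) with Affymetrix Expression Console, version not given, and deposited 1 log2 value per transcript cluster and array. Mouse Exon 1.0 ST is the array the labels give, but identifiers of the table's clusters belong to a later array type. The values were used as deposited, with 0 sample columns left out. Of 21072 clusters, 18992 had 1 symbol, 1390 several and 690 none, and 418 symbols were updated through a RefSeq gene table (GRCm38.p6), which was also used for gene order. Clusters were compared in limma 3.58.1 (R 4.3.3) with 1 mean per group over all 9 arrays (6 residual and 0.956 prior degrees of freedom), 2-sided, and Benjamini-Hochberg adjusted over all clusters within a comparison at a threshold of 0.05. The procedure was tested on simulated data with independent noise on each array. Those data lack the shared deviation by replicate number described below, so the test does not cover it. Precision is limited by having 3 arrays in a group.

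Arrays with the same replicate number deviated together from their group means (r of 0.451 to 0.693 over 9 pairs, against -0.537 to -0.09 over 18 pairs with different numbers), so a fit with the number as a block was an alternative. Deviations within a group cancel out, so the positive values bring negative ones for different numbers, which are no separate support. What arrays of 1 number share is not stated in the labels. Other alternatives were fits on the groups compared alone, trend and robust options, array weights, median subtraction, quantile normalization, filters on dim or tied clusters, an average over clusters that share a symbol, and dropping each array in turn. Named genes were all members, up to 4 called pathway genes per direction and comparison and every called receptor, up to 3 called genes per marker list, neighbours within 3 places, and the 3 genes most alike to each member whose group means spanned at least 1 log2 unit. Epx, the other eosinophil genes and Trp63 were not called and were named outside this rule, as was Ms4a2, which was called. The members and lists were chosen with earlier results of these data known.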

Additional observations from a re-analysis of the deposited data

How the results depend on the processing

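With the replicate number as a block, the pairing left the members called at 6 with wild type and 4 for R396Q against wild type, and gave 2 in place of 1 for R396Q against empty vector, the addition being Alox15. It changed no other call of a member. Clusters called with the block were 632 for R396Q against empty vector (main value 259), 2750 for R396Q against wild type (1211) and 3667 for wild type (1894), and pathway genes 2 (1), 14 (6) and 22 (13). With only the groups compared, the clusters called were 94, 772 and 1026, and the pathway genes 0 for R396Q and 5 for wild type against empty vector. For R396Q against empty vector the members called were 2 with trend and robust options, median subtraction, quantile normalization or at least 6 distinct values, and pathway genes 2 with median subtraction or at least 6 distinct values. Pathway genes for R396Q against wild type were 10 without the dimmest 30% of clusters, which leaves fewer clusters to adjust over and gives no value for Ltc4s, and 11 with at least 6 distinct values. Leaving out each array in turn gave, for R396Q against empty vector, 85 to 304 clusters, 0 to 1 members and 0 to 4 pathway genes. For R396Q against wild type it gave 650 to 1153 clusters, 2 to 3 members and 2 to 7 pathway genes, and for wild type against empty vector 6 to 12 pathway genes. Among members called with wild type, Alox5, Alox8, Alox12 and Alox15 stayed called without any 1 array and in every alternative. Alox12e and Hpgds lost the call on dropping some arrays and in a fit of these groups alone. Signs turned only for changes that did not pass the test. Alox5ap for R396Q against empty vector was -0.011 with array weights and -0.183 with quantile normalization, and ranged over left-out arrays from -0.234 to 0.261, from -0.376 to 0.131 against wild type and from -0.119 to 0.451 for wild type. Ltc4s with wild type was 0.02 with quantile normalization and -0.067 to 0.071 over left-out arrays, and Ptgs2 with R396Q was -0.244 to 0.07. The cause of these shifts was not tested. Of 240 member values under alternatives that kept all arrays, 226 kept direction and side of the threshold, 6 gained the call, 5 lost it and 3 turned sign.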

Other observations

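The choice of the pathway genes given here followed a look at their values, and Mgst2 and Pla2g15 missed the threshold in the fit without the replicate block. Mgst2, a glutathione transferase that can make leukotriene C4, had log2 signals of 10.47, 9.53 and 9.09 with empty vector, 7.51, 7.69 and 6.50 with wild type and 10.52, 9.81 and 8.5 with R396Q. The wild type arrays lay below all others, with a change of -2.47 (SE 0.61, limma adjusted p = 0.0546, and 0.00587 with the block), and passed in 6 of 9 alternatives. Pla2g15, the lysosomal phospholipase, changed by -1.98 with wild type (SE 0.50, limma adjusted p = 0.0575, and 0.00194 with the block), and passed in 5 of 9 alternatives. Cyp4f18, which inactivates leukotriene B4 in leukocytes, had 8.35, 6.22 and 7.74 with empty vector, 11.12, 9.54 and 9.87 with wild type and 8.25, 7.27 and 7.74 with R396Q. Its rise with wild type passed in both fits (2.74, SE 0.64, limma adjusted p = 0.0444, and 0.00496 with the block) and survived dropping empty vector 1 but no other array (up to 0.117).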
